A study of Mus musculus with 12 samples.

Results

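The 35 genes described here act in G2 and mitosis, the stages in which a cell prepares for division, separates its chromosomes and divides. They were chosen by name: a row of the deposited count table belonged to the group when its gene symbol equalled 1 of 35 fixed symbols. All 35 were found among the 56350 rows, 34 passed the filter on low counts, and Kif11 did not. Expression was measured by RNA sequencing of bone marrow cells from 12 C57BL/6 mice, about 12 to 14 weeks old and of both sexes, with 1 library per mouse. All 12 mice were Shp2E76K/+;LysM-Cre+, so the vehicle group carries the same activated allele of Ptpn11, the gene of the phosphatase Shp2, and no mouse without that allele is compared. The Cre recombinase is driven by the promoter of Lyz2, a gene of myeloid cells, while the RNA came from whole marrow. Each of the 4 groups held 3 mice, which received vehicle, PD-901, 5-azacitidine, or both drugs (the combination). PD-901 (PD0325901), an inhibitor of the kinase MEK, was given by mouth at 5 mg/kg in 20 doses over 4 weeks. 5-azacitidine, a nucleoside drug that traps DNA methyltransferases and so reduces methylation of DNA, was given into the peritoneum at 5 mg/kg in 5 doses over 4 weeks, and the combination group received both courses. The series asks how the MEK inhibitor acts when it is joined to the hypomethylating agent.

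As background, entry into mitosis is driven by Cdk1 bound to cyclin A or cyclin B, and exit follows when the anaphase promoting complex marks cyclin B for destruction. The mRNAs of this module are transcribed together late in the cell cycle: the DREAM complex keeps the genes silent in resting cells, and Mybl2 with the MuvB core and Foxm1 activates them in G2. Resting and terminally differentiated marrow cells, such as mature neutrophils, hold little of these mRNAs, whereas dividing precursors of the red and white lineages hold much. Messenger RNA of these genes therefore counts dividing cells as well as transcription per cell. In bulk marrow fewer cells of a type and less RNA per cell cannot be told apart, and this holds for every value given here.

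The promoters show a feature that the choice of genes did not use. A table of RefSeq promoter windows (build GRCm38.p6, 250 bases before and 50 after each annotated start) held 30 of the 35 genes. TTTGAA, the core of the cell cycle genes homology region through which MuvB complexes bind, was searched on both strands, so TTCAAA also counted. CCAAT, the box bound by NF-Y, was searched likewise together with ATTGG. Over the whole 300 bases 23 of 30 genes (76.7%) held TTTGAA, against 18.1% of 27025 mouse promoters of the same length, and 20 of 30 (66.7%) held both motifs, against 7.12%. Wholly within the 250 bases before the start, TTTGAA was present in 10 of 30 (33.3%, against 16.3%) and CCAAT in 23 of 30 (76.7%, against 34.5%). In Prc1 it spanned the start and is not among the 10. A motif this short occurs often, and a match describes the letters, not a bound site. The 6 promoters shown are those with TTTGAA before the start whose genes had the lowest p in the combination against vehicle. Each line is the 150 bases before the RefSeq start, 5′ to 3′ along the gene, with both motifs in capitals, and no TTTGAA overlapped a CCAAT. They lie at chr5:45669775-45669924 (Ncapg, + strand), chr10:69352913-69353062 (Cdk1, - strand), chr4:118437344-118437493 (Cdc20, - strand), chr7:135716380-135716529 (Mki67, - strand), chr3:27153879-27154028 (Ect2, - strand) and chr11:99024190-99024339 (Top2a, - strand).
Ncapg: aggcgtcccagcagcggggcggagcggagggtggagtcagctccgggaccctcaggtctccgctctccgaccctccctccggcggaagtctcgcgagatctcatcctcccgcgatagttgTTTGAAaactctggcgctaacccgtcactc
Cdk1: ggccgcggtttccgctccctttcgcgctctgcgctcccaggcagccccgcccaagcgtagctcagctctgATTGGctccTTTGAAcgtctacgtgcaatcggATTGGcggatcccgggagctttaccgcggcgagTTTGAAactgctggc
Cdc20: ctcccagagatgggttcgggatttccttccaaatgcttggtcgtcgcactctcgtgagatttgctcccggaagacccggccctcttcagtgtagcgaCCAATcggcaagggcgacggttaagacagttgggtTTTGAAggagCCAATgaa
Mki67: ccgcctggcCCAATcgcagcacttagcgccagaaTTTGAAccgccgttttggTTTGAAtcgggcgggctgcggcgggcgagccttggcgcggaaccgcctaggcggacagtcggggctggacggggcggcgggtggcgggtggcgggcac
Ect2: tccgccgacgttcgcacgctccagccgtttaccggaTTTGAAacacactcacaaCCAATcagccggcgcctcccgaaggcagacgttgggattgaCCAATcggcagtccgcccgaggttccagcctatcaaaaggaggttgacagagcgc
Top2a: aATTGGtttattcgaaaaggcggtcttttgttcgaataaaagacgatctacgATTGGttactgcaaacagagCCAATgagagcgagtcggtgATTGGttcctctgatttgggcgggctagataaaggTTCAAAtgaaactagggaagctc
Ncapg holds 1 TTTGAA, 30 bases before the start, and its CCAAT lies outside the printed stretch at 176. Cdk1 has TTTGAA at 71 and at 15 bases before the start, with ATTGG at 80 and 48. In Cdc20 the TTTGAA at 18 sits beside a CCAAT at 8, and in Mki67 a pair stands at 116 and 98. Top2a carries 1 TTTGAA on the opposite strand at 23, after 4 CCAAT boxes between 149 and 58, and 1 on its own strand outside the printed stretch at 179. Ccnb1, the gene with the greatest change described below, had no TTTGAA in the window and CCAAT at 99 and 67 bases.

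The genes were well measured. Total counts ran from 15356919 to 27148190 per library, and the 34 tested genes had a median mean level of 126 CPM (TMM-scaled counts relative to library size), against 12.5 over all 17475 genes tested. Their median biological coefficient of variation, the spread between mice of a group beyond counting error, was 0.135, against 0.250 over all tested genes. Per kilobase of exon, the vehicle level was highest for Ccnb2 (cyclin B2, 94.8 CPM per kb), Cdc20 (the activator of the anaphase promoting complex, 81.3), Mki67 (the proliferation antigen Ki-67, 79.2) and Top2a (topoisomerase II alpha, 73.1). On that scale it was lowest for Cdc25c (a phosphatase that activates Cdk1, 4.20 CPM per kb), Cenpf (6.25) and Ttk (7.83). Thus the module spanned more than an order of magnitude per length, and every tested member was detected in all 12 libraries.

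In the combination group 12 of 34 genes were higher than in vehicle at an adjusted p under 0.05 and 0 were lower (edgeR quasi-likelihood test, Benjamini-Hochberg over all tested genes, 3 mice against 3). The background is 5.78% of all tested genes called higher and 7.97% called lower. The 12 were Ccnb1, Aurka, Ccna2, Bub1, Plk1, Tpx2, Ncapg, Hmmr, Cdk1, Nusap1, Cdc25c and Birc5. All 34 fitted changes were above 0, from 0.04 to 0.78 on the log2 scale with a median of 0.43, while the median over all tested genes was 0.01. In 28 of the 34 genes every combination library lay above every vehicle library, against 16.1% of all genes tested, and 30 had an unadjusted p under 0.05, against 27.5% of all genes. These are modest changes: the greatest, of Ccnb1, was 1.72-fold. The call of single genes depended on single mice and on sex and cell type markers, as given after the gene descriptions.

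**Figure D1:**
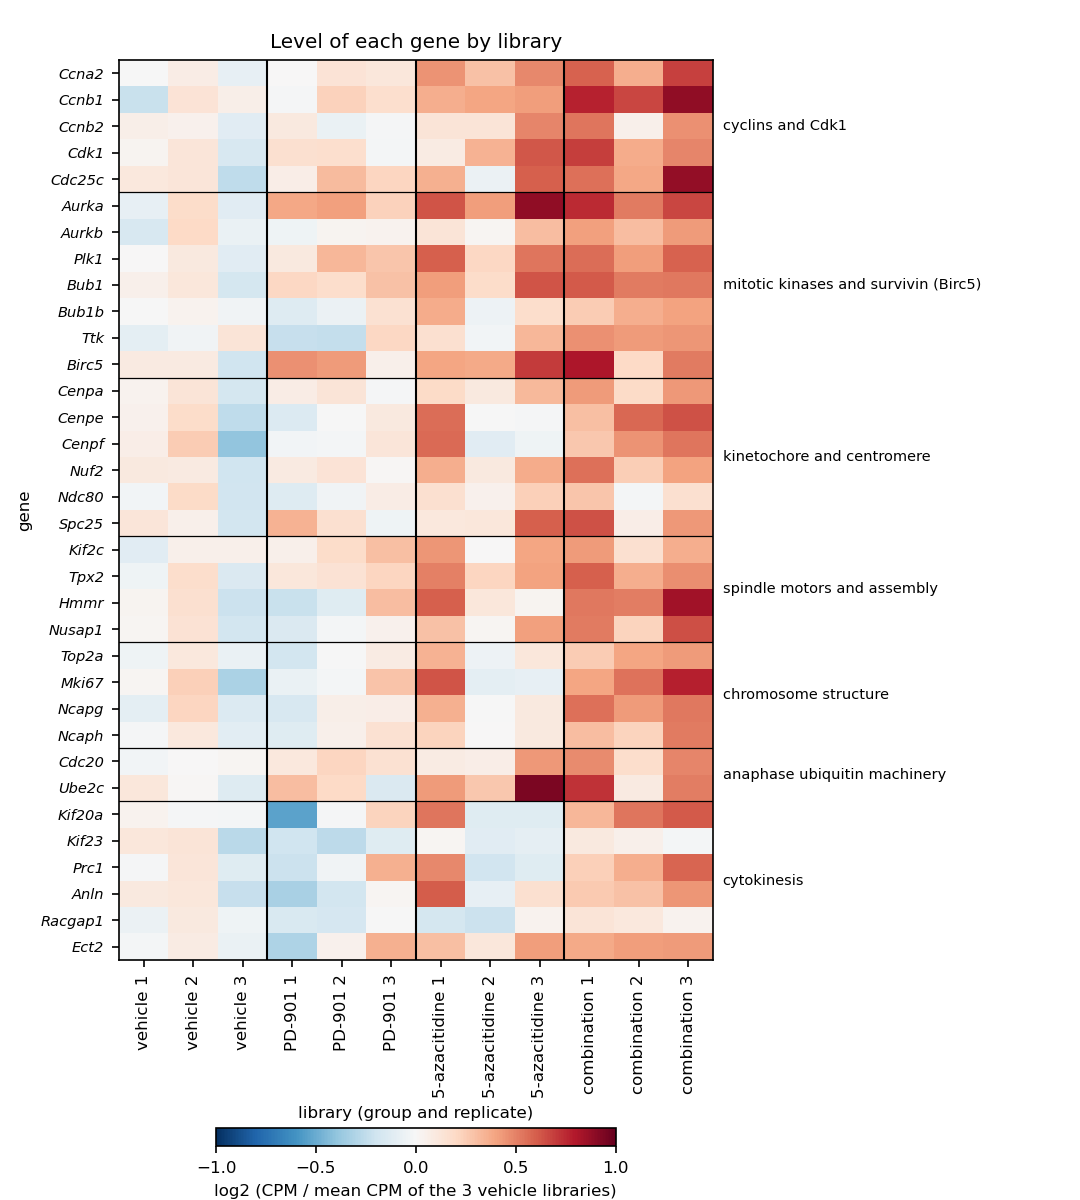
Level of each of the 34 tested genes (rows, grouped by role) in each of the 12 libraries (columns), as log2 of CPM over the mean of the 3 vehicle libraries. Red is above and blue below that mean; the 3 combination columns are red for almost all genes, vehicle 3 is mostly blue, and 5-azacitidine 1 and 3 are redder than 5-azacitidine 2.

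Among the cyclins and their kinase, 4 of 5 genes were higher in the combination. Ccnb1 encodes cyclin B1, whose binding to Cdk1 starts mitosis (chromosome 13, 100778650 to 100786570, mm10). Its level was 108, 139 and 132 CPM in vehicle mice, 125, 148 and 142 with PD-901, 162, 166 and 168 with 5-azacitidine, and 216, 200 and 234 in the combination. The 3 combination mice lay above all other mice, and the 5-azacitidine mice above all vehicle and PD-901 mice. The combination mean of 217 ± 16.8 CPM (SD, n = 3) stood against 126 ± 16.2 in vehicle (SD, n = 3), a log2 change of 0.78 (SE 0.13, edgeR adjusted p = 0.0033).

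Ccna2 encodes cyclin A2, active from S phase into mitosis (chromosome 3, 36564865 to 36572150). Vehicle mice had 222, 234 and 210 CPM, PD-901 mice 223, 245 and 240, 5-azacitidine mice 304, 272 and 310, and combination mice 334, 286 and 357. Vehicle and PD-901 overlapped, 5-azacitidine and the combination overlapped, and every mouse of the latter groups was above every mouse of the former. The change against vehicle was 0.55 (SE 0.12, edgeR adjusted p = 0.0098).

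Cdk1, the kinase itself (chromosome 10, 69335146 to 69352938), stood at 123, 132 and 108 CPM in vehicle, 135, 136 and 119 with PD-901, 128, 154 and 186 with 5-azacitidine, and 196, 157 and 170 in the combination. The combination was above vehicle in every mouse, and 5-azacitidine mice spread across both ranges. Its change was 0.52 (SE 0.15, edgeR adjusted p = 0.030). Cdc25c, at the low level of 22.2, 22.5 and 17.3 CPM in vehicle, reached 30.3, 26.9 and 37.9 in the combination, with 21.6 to 25.7 under PD-901 and 19.9 to 31.3 under 5-azacitidine, a change of 0.62 (SE 0.19, edgeR adjusted p = 0.046). Ccnb2 was not called: its vehicle values of 151, 150 and 135 CPM overlapped the combination values of 211, 150 and 199, since combination mouse 2 was at the vehicle level (0.36, edgeR adjusted p = 0.12). PD-901 gave 155, 139 and 144 CPM for Ccnb2, and 5-azacitidine gave 159, 158 and 203.

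**Figure D2:**
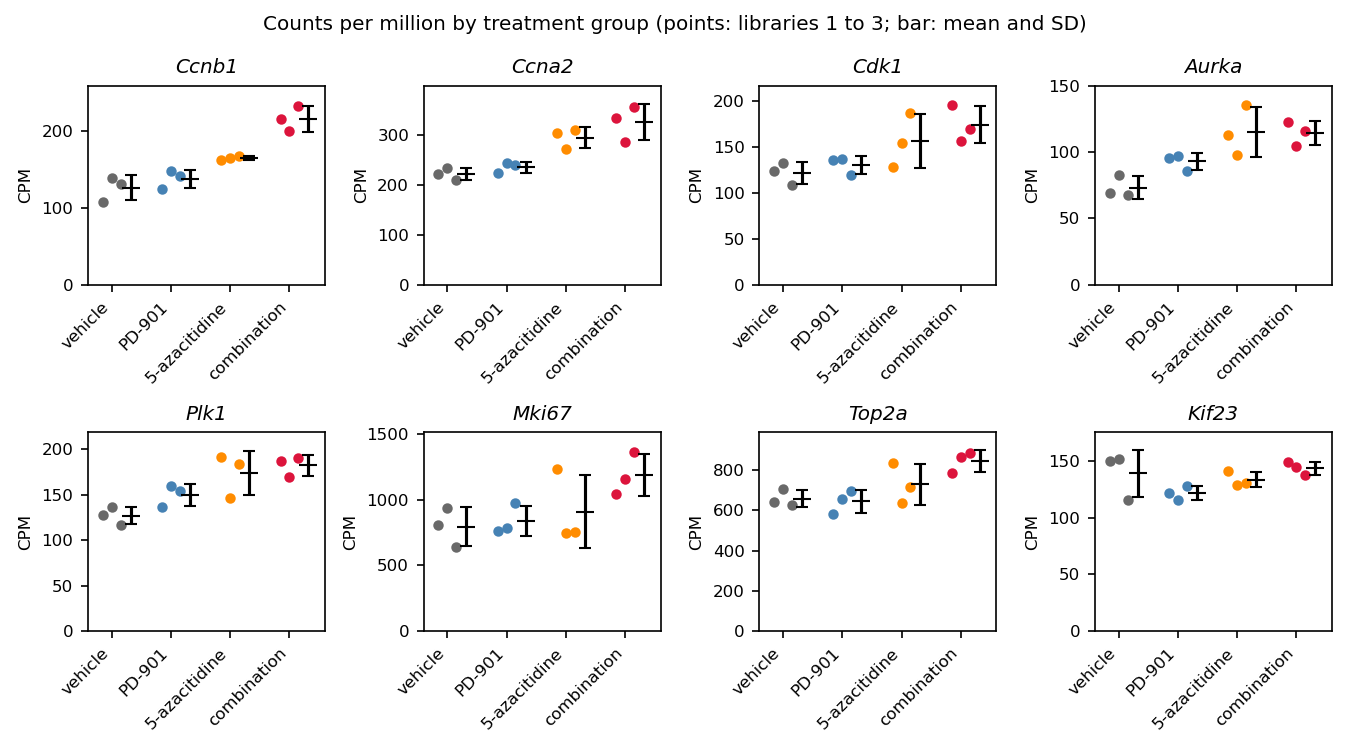
CPM of 8 genes in each library (points, replicates 1 to 3 from left to right within a group) with the mean and SD of each group (bar), on axes that start at 0. Ccnb1 separates the combination from all other groups, Aurka is as high with 5-azacitidine as with the combination, Mki67 has 1 high 5-azacitidine library at 1232 CPM, and Kif23 overlaps in all groups.

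The mitotic kinases, with survivin added, gave 4 calls of 7. Aurka encodes Aurora A, which matures centrosomes and builds the spindle (chromosome 2, 172356190 to 172370535). Vehicle mice had 69.3, 83.1 and 67.6 CPM, PD-901 mice 96.0, 97.2 and 86.1, 5-azacitidine mice 113, 98.0 and 136, and combination mice 123, 105 and 116. All 9 treated mice were above all 3 vehicle mice, and 5-azacitidine and the combination covered the same range. The log2 change was 0.65 in the combination (SE 0.14, edgeR adjusted p = 0.0089), 0.66 with 5-azacitidine (edgeR adjusted p = 0.096) and 0.34 with PD-901 (edgeR adjusted p = 0.96).

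Plk1, Polo-like kinase 1, which acts from mitotic entry to cytokinesis, had 128, 136 and 117 CPM in vehicle, 136, 160 and 154 with PD-901, 192, 147 and 184 with 5-azacitidine, and 187, 170 and 191 in the combination. Bub1, a kinase of the spindle checkpoint, had 72.5, 75.6 and 61.9 CPM in vehicle, 80.7, 79.2 and 85.9 with PD-901, 93.6, 79.7 and 108 with 5-azacitidine, and 107, 100 and 101 in the combination. For both genes the combination lay above vehicle in every mouse. The changes were 0.52 for Plk1 (SE 0.13, edgeR adjusted p = 0.017) and 0.55 for Bub1 (SE 0.13, edgeR adjusted p = 0.014). Birc5 encodes survivin, which is no kinase but holds Aurora B to the chromosomes in the passenger complex. It had 133, 133 and 109 CPM in vehicle, 172, 168 and 129 with PD-901, 165, 163 and 203 with 5-azacitidine, and 219, 144 and 180 in the combination, so combination mouse 2 was within the range of PD-901 (change 0.53, SE 0.17, edgeR adjusted p = 0.048).

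The other 3 genes of this set were not called. Aurkb, the kinase of the passenger complex, had 113, 145 and 121 CPM in vehicle and 167, 156 and 170 in the combination, with 122 to 129 under PD-901 and 128 to 156 under 5-azacitidine. Its change of 0.38 missed the threshold although the groups did not overlap (edgeR adjusted p = 0.056). Bub1b, the checkpoint protein BubR1, had 147, 151 and 144 CPM in vehicle and 176, 190 and 194 in the combination (134 to 164 under PD-901, 142 to 191 under 5-azacitidine, change 0.34, edgeR adjusted p = 0.096). For Ttk, the checkpoint kinase Mps1, the combination mice were 51.8 to 52.8 CPM and the vehicle mice 36.0 to 42.0 (change 0.44, edgeR adjusted p = 0.065).

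None of the 6 kinetochore and centromere genes was called, though 5 had an unadjusted p under 0.05 and all 6 fitted changes were above 0. Cenpa, the histone H3 variant that marks centromeres, had 171, 183 and 148 CPM in vehicle, 176, 183 and 166 with PD-901, 192, 179 and 209 with 5-azacitidine, and 225, 191 and 225 in the combination (change 0.35, edgeR adjusted p = 0.074). Combination and vehicle mice did not overlap. Changes of the rest of these genes ran from 0.15 for Ndc80, a microtubule-binding subunit of the outer kinetochore, to 0.51 for Cenpe, a kinetochore motor (edgeR adjusted p = 0.56 and 0.056). Cenpf, Nuf2 and Spc25, which also belong to the outer kinetochore, lay between them.

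Of the 4 tested spindle genes 3 were called. Tpx2, which activates Aurora A on spindle microtubules, had 160, 187 and 150 CPM in vehicle, 179, 183 and 192 with PD-901, 235, 192 and 219 with 5-azacitidine, and 250, 213 and 228 in the combination (change 0.48, SE 0.13, edgeR adjusted p = 0.024). Hmmr, a microtubule-associated spindle protein and hyaluronan receptor, had 83.7, 91.8 and 70.7 CPM in vehicle, 70.5, 75.6 and 102 with PD-901, 124, 88.6 and 83.8 with 5-azacitidine, and 118, 117 and 147 in the combination (change 0.63, SE 0.18, edgeR adjusted p = 0.030). Nusap1, which bundles spindle microtubules, had 128, 139 and 111 CPM in vehicle, 114, 124 and 129 with PD-901, 154, 127 and 167 with 5-azacitidine, and 181, 147 and 197 in the combination (change 0.47, SE 0.15, edgeR adjusted p = 0.041). In all 3 genes every combination mouse was above every vehicle mouse. For Hmmr and Nusap1 the 5-azacitidine mice overlapped both groups, and for Tpx2 they were all above vehicle. Kif2c, a depolymerase of microtubules, changed by 0.32 with no call (edgeR adjusted p = 0.15).

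Kif11, the motor that pushes spindle poles apart, had 27 counts in all 12 libraries together, between 0 and 13 in a library. Besides its row on chromosome 19 (37376403 to 37421859) there is a second row with the same symbol and the same exon length of 7461 bases on a separate scaffold, with 2 counts. Among protein-coding genes on chromosomes with such a second row, 222 of 227 (97.8%) had fewer than 100 counts over the 12 libraries, against 39.1% of 21596 genes without one. They include Ppp1ca with 30 counts, Uqcrc1 with 17 and Ndufs3 with 6, genes that nearly every cell uses, and the mitotic kinase genes Plk4 with 0 and Nek2 with 6. The sources used here do not say how reads that match 2 places were counted, and the counts of Kif11 are not read as its expression.

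In the set for chromosome structure 1 of 4 genes was called. Ncapg, a condensin I subunit, had 82.2, 102 and 79.9 CPM in vehicle, 78.7, 91.6 and 92.3 with PD-901, 113, 87.9 and 94.4 with 5-azacitidine, and 129, 118 and 127 in the combination (change 0.50, SE 0.14, edgeR adjusted p = 0.025). The 3 combination mice were above all 9 others. Mki67, which coats mitotic chromosomes, had 809, 941 and 641 CPM in vehicle, 763, 785 and 972 with PD-901, 1232, 746 and 753 with 5-azacitidine, and 1045, 1162 and 1364 in the combination. Its change of 0.58 was as great as that of called genes, but its spread was wider (SE 0.20, edgeR adjusted p = 0.071), and 5-azacitidine mouse 1 was higher than 2 of the 3 combination mice. Top2a, which untangles sister chromatids, had 640, 709 and 628 CPM in vehicle, 580, 657 and 697 with PD-901, 838, 635 and 714 with 5-azacitidine, and 786, 867 and 884 in the combination (change 0.36, edgeR adjusted p = 0.093). Ncaph, another condensin I subunit, changed by 0.36 (edgeR adjusted p = 0.075).

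Neither gene of the ubiquitin machinery of anaphase was called. Cdc20 had 149, 153 and 154 CPM in vehicle, 164, 177 and 169 with PD-901, 160, 159 and 205 with 5-azacitidine, and 211, 171 and 213 in the combination. All 9 treated mice were above the 3 vehicle mice (combination change 0.39, edgeR adjusted p = 0.064). Ube2c, the ubiquitin-conjugating enzyme of the anaphase promoting complex, had 202, 189 and 171 CPM in vehicle, 233, 216 and 170 with PD-901, 252, 227 and 360 with 5-azacitidine, and 309, 200 and 268 in the combination. Its highest mouse was in the 5-azacitidine group and combination mouse 2 fell within the vehicle range (change 0.47, edgeR adjusted p = 0.12).

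The 6 cytokinesis genes gave no call, and 3 had an unadjusted p under 0.05. Prc1, which bundles the microtubules of the midzone, had 99.7, 109 and 92.4 CPM in vehicle, 86.4, 98.0 and 128 with PD-901, 140, 87.9 and 92.2 with 5-azacitidine, and 118, 129 and 150 in the combination (change 0.40, edgeR adjusted p = 0.17). Anln, anillin of the contractile ring, had 110, 111 and 87.5 CPM in vehicle, 81.9, 90.8 and 104 with PD-901, 156, 97.3 and 115 with 5-azacitidine, and 124, 126 and 140 in the combination (change 0.34, edgeR adjusted p = 0.21). For both genes the combination was above vehicle in every mouse, and the highest or second highest mouse of all was 5-azacitidine mouse 1. Kif23 and Racgap1, the partners that form centralspindlin, had the smallest changes of the module, 0.04 and 0.09 (edgeR adjusted p = 0.88 and 0.70). Kif23 stood at 139 ± 20.8 CPM in vehicle (SD, n = 3) and 143 ± 5.78 in the combination (SD, n = 3), with overlapping mice, and Racgap1 at 208 ± 12.6 and 222 ± 7.81. Ect2, the exchange factor that centralspindlin recruits, changed by 0.41 and Kif20a, a midzone motor, by 0.50 (edgeR adjusted p = 0.088 and 0.11).

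**Figure D3:**
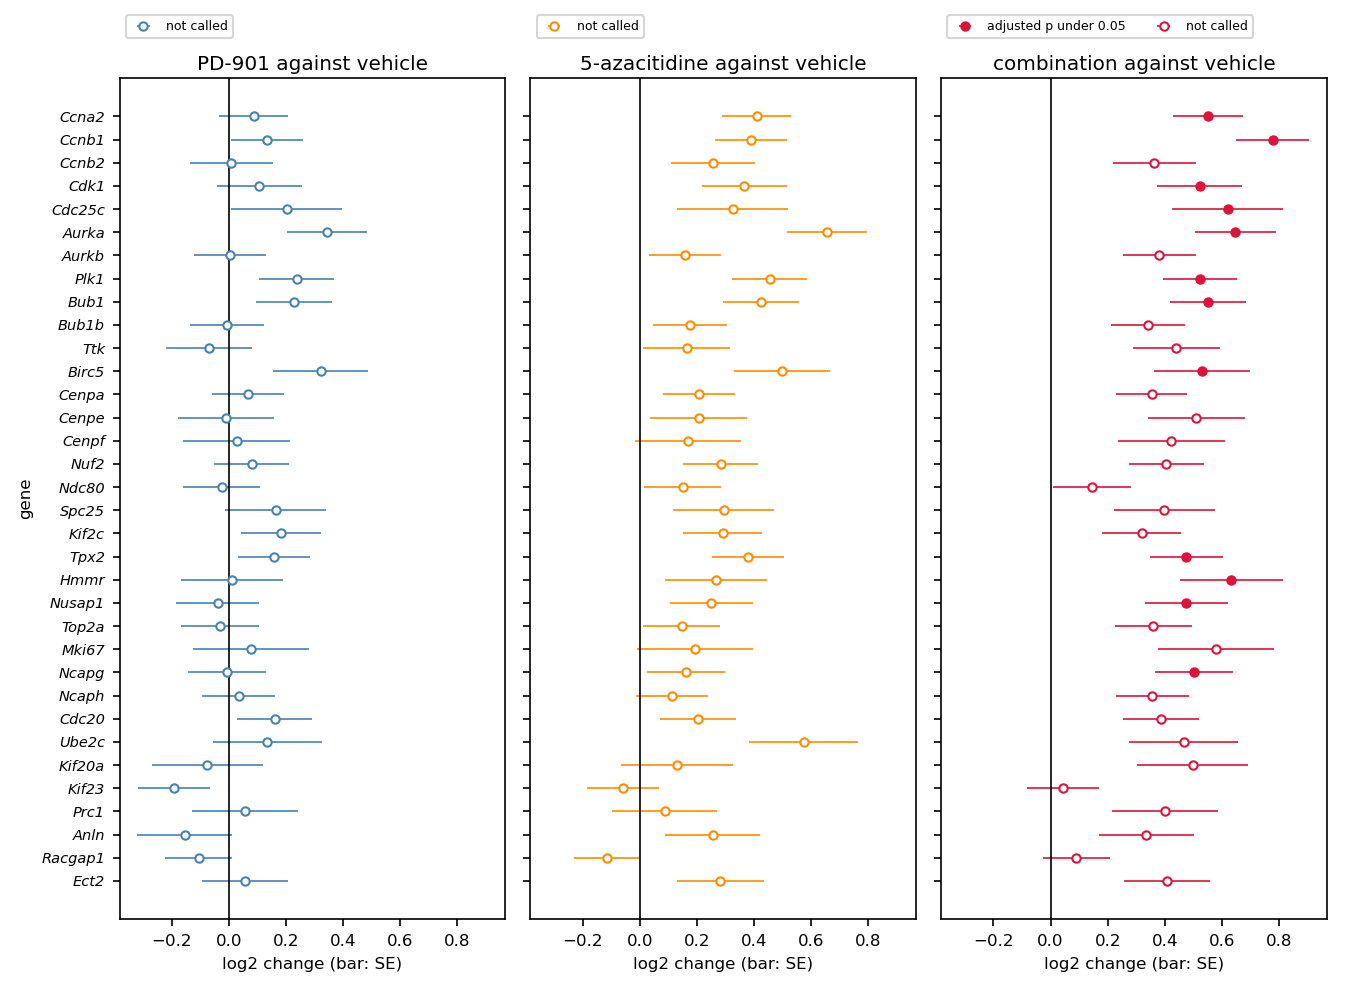
Fitted log2 change against vehicle (points) with its SE (bars) for the 34 tested genes under each treatment; filled points have an adjusted p under 0.05. The 12 filled points are all in the combination panel, and most points move to the right from PD-901 to 5-azacitidine to the combination.

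With PD-901 alone the mice overlapped those of the vehicle group for most genes. No member was called in either direction in edgeR's test (0% of all tested genes higher and 0% lower), 1 had an unadjusted p under 0.05, which was Aurka (4.88% of all tested genes), and the median change was 0.06. That median had no stable sign: it was -0.01 without vehicle mouse 3, -0.02 without PD-901 mouse 3, 0.12 without vehicle mouse 2 and -0.05 with the erythroblast markers in the fit. DESeq2 and limma-voom also called 0. In 4 of 34 genes all PD-901 mice were above all vehicle mice, against 6.83% of all genes. The greatest fitted changes were those of Aurka (0.34) and Birc5 (0.32), and the lowest that of Kif23 (-0.19).

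With 5-azacitidine alone no gene was called by edgeR either (0.00572% of all tested genes higher, 0% lower), while 10 genes had an unadjusted p under 0.05 (15.3% of all tested genes) and the median change was 0.25. With the erythroblast markers in the fit the median was 0.15 with 3 unadjusted p under 0.05, and with Xist it was 0.17 with 4. DESeq2 called 3 and limma-voom 0. All 5-azacitidine mice were above all vehicle mice in 12 of 34 genes, against 10.8% of all genes. Aurka (0.66), Ube2c (0.57) and Birc5 (0.50) had the greatest fitted changes. The 3 mice of this group differed: mouse 1 was above the vehicle mean for 33 of the 34 genes, mouse 3 for 28 and mouse 2 for 21. The summed promyelocyte markers were 8992 and 10530 CPM in mice 1 and 3 and 5857 in mouse 2, against 4732 to 5532 in vehicle, with 0 of 6 called and 5 at an unadjusted p under 0.05 (median 0.93). Their part in the module's change was not tested.

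Against PD-901 the combination was higher in 5 genes and lower in 0 (1.69% and 5.12% of all tested genes). They were Ccnb1 (0.65, edgeR adjusted p = 0.0076), Ccna2 (0.47, edgeR adjusted p = 0.033), Ncapg (0.51, edgeR adjusted p = 0.036), Nusap1 (0.51, edgeR adjusted p = 0.046) and Hmmr (0.62, edgeR adjusted p = 0.0498). The median change was 0.35, and in 26 of 34 genes all combination mice were above all PD-901 mice, against 12.7% of all genes. Against 5-azacitidine the combination gave 0 calls in either direction (0.252% and 1.07% of all tested genes), a median change of 0.16, 2 unadjusted p under 0.05 (Ccnb1 and Ncapg, against 15.8% of all genes) and 5 of 34 genes with all combination mice above all 5-azacitidine mice, against 9.1% of all genes. DESeq2 called 1 gene there and limma-voom 0. Of the interaction, the departure of the combination from the sum of the single changes on the log scale, 0 genes were called (0% higher and 0% lower over all tested genes) and 0 had an unadjusted p under 0.05 (10.7% of all tested genes), so no departure from additivity was detectable with 3 mice a group. DESeq2 and limma-voom called 0 as well.

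A joint test for any difference among the 4 groups called 3 genes, Ccnb1 (edgeR adjusted p = 0.011), Aurka (0.026) and Ccna2 (0.027), against 6.96% of all tested genes. Group means were highest in the combination for 31 of the 34 genes and in 5-azacitidine for Aurka, Ndc80 and Ube2c. The order vehicle, PD-901, 5-azacitidine, combination from low to high was found in 21 genes, and in 8 more PD-901 and vehicle changed places. Comparisons that share the vehicle or the combination mice are not independent of each other.

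Single mice weighed on these calls. Vehicle mouse 3 was the lowest of all 12 for 18 of the 34 genes and PD-901 mouse 1 for 9, while combination mouse 3 was the highest for 16 and combination mouse 1 for 10. Leaving out 1 library at a time gave 3 to 17 genes higher in the combination than in vehicle and 0 lower. The count was 3 without vehicle mouse 3, without combination mouse 1 or without combination mouse 3, 4 without vehicle mouse 1, and 17 without combination mouse 2. In that order, 696, 285, 381, 278 and 1088 of all genes tested were called higher, against 1010 in the reported fit. Ccnb1 and Aurka were called in all 12 of these fits, with changes of 0.69 to 0.85 and 0.59 to 0.75. Ccna2 lost its call only without combination mouse 3 (edgeR adjusted p = 0.053), and Bub1 without vehicle mouse 3 or combination mouse 1. For the combination against PD-901 the count of 5 became 0 without PD-901 mouse 1, 1 without PD-901 mouse 2, combination mouse 1 or combination mouse 3, 2 without vehicle mouse 2, 3 without vehicle mouse 1 or PD-901 mouse 3, and 8 without 5-azacitidine mouse 1. Over all genes tested these counts were, in that order, 35, 132, 60, 67, 163, 285, 99 and 412, against 296 in the reported fit. The joint count of 3 became 0 without combination mouse 1 or 3, 1 without vehicle mouse 1 or 3, 5 without 5-azacitidine mouse 2 and 7 without 5-azacitidine mouse 1. Joint calls over all genes tested were, in that order, 4, 186, 742, 1191, 1326 and 1529, against 1217 in the reported fit.

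The groups also differed in sex-linked RNA. Xist, the non-coding RNA of the inactive X chromosome of female cells, was above 100 CPM in 3 of 3 vehicle, 2 of 3 PD-901, 1 of 3 5-azacitidine and 0 of 3 combination libraries, although the labels state that experiments were matched for sex. With Xist above 100 CPM as a term of the fit, the median change of the combination against vehicle was 0.39 and 7 genes had an unadjusted p under 0.05, but 0 were called, as were 0 of all 17475 genes. Ccnb1 then changed by 0.88 (edgeR adjusted p = 0.058), Ccna2 by 0.52 (0.18) and Aurka by 0.44 (0.30). Within the libraries with low Xist, the combination mice had a median log2 ratio of 0.44 to the 1 PD-901 mouse, with all 34 genes above it, and of 0.11 to the 2 5-azacitidine mice, with 27 above. Within the libraries with high Xist, the 2 PD-901 mice had a median log2 ratio of 0.08 to vehicle, with 30 of 34 genes above it. The 1 5-azacitidine mouse had a ratio of 0.03, with 21 above. No vehicle mouse had low Xist and no combination mouse high Xist, so for this contrast sex and treatment cannot be told apart.

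Markers of several marrow lineages also differed between the combination and vehicle, some higher and some lower. All 14 erythroblast markers were higher in the combination than in vehicle (median change 1.46). Their summed level was 1407 to 2267 CPM in vehicle, 3105 to 4377 with PD-901, 3090 to 3442 with 5-azacitidine, and 6202, 2451 and 7641 in the combination. Combination mouse 2, the lowest of its group, was also the lowest of its group in mean level of the 34 genes. The mean log2 level of the 34 genes was 7.155 in combination mouse 2. It was 6.816, 6.904 and 6.96 in the PD-901 mice, whose erythroblast sums were higher. Promyelocyte sums were 8999 CPM in combination mouse 2 and 5463, 5387 and 5825 in the PD-901 mice. The 5-azacitidine mice, also with higher erythroblast sums, were at 7.175, 6.907 and 7.148. With the mean level of these markers in the fit 0 genes of the module were called, the median change was 0.29 and 4 had an unadjusted p under 0.05. Over all tested genes that fit called 1 higher and 0 lower, against 1010 and 1393 in the reported fit. With PD-901 none of the 14 was called (median change 0.70, 7 unadjusted p under 0.05). Of the 6 promyelocyte markers 5 rose (4732 to 5532 CPM summed in vehicle, 6195 to 9324 in the combination). In combination mice 1 to 3 the sums were 9324, 8999 and 6195 CPM. The mean log2 levels of the 34 genes in these mice were 7.29, 7.155 and 7.334, so mouse 3 was highest in the module and lowest in these markers. Of the mature neutrophil markers 5 of 6 fell (4553 to 10130 CPM against 1487 to 2947), of the B cell precursor markers 10 of 10 (382 to 459 CPM against 72 to 205), of the dendritic cell markers 5 of 6 and of the monocyte markers 4 of 7. In the remaining lists 0 genes rose and 1 of 6 secondary granule, 1 of 6 stem and progenitor and 2 of 5 stroma, bone and vessel markers fell, with 0 of 5 mature B cell, 0 of 6 T cell and 0 of 4 tested megakaryocyte markers called. No marker gene of the erythroblast, promyelocyte or mature neutrophil lists was at 0 counts in any library. The part of these lineages in the module's change was not tested.

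Lyz2, whose promoter drives the Cre, was at 44.9 and 55.9 CPM in combination mice 1 and 2 and at 172 and 147 in vehicle mice 1 and 2, and between 700 and 4180 in the 8 other libraries. Without those 4 libraries the contrast is combination mouse 3 against vehicle mouse 3, the mice most often highest and lowest for these genes. Its median change was 0.64 with 0 calls, and that fit assumes that the lone mice vary like the other groups. With Lyz2 as a term in the fit 6 genes were called, at a median of 0.43.

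**Figure D4:**
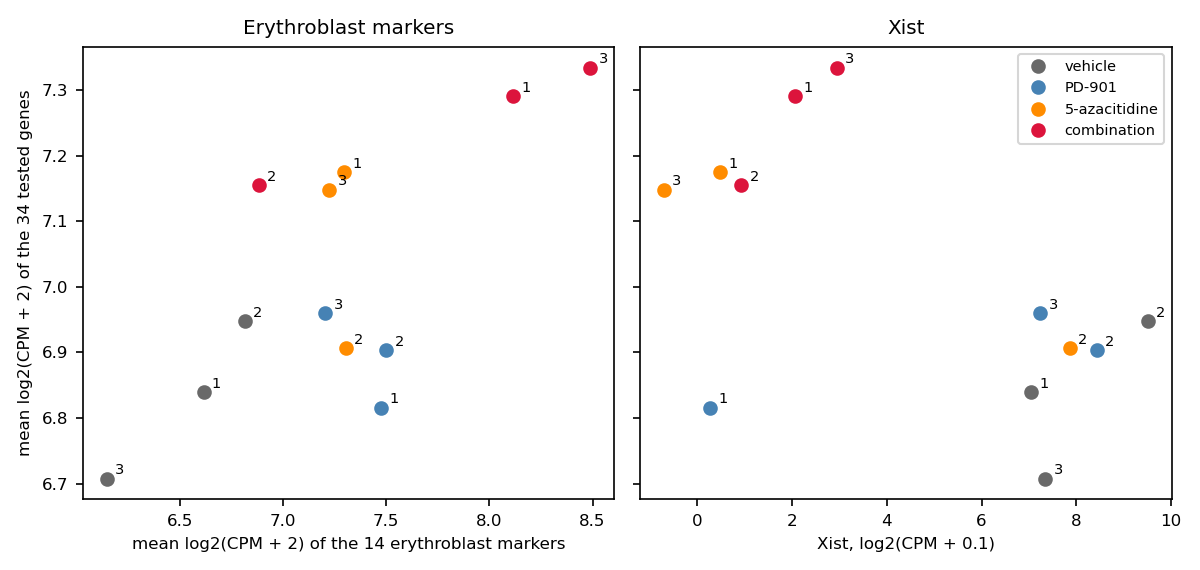
Mean log2(CPM + 2) of the 34 tested genes (vertical axis) in each library against the same mean over the 14 erythroblast markers (left) and against the log2 level of Xist (right); points are libraries, coloured by group and numbered by replicate. Combination 1 and 3 are highest on both axes at left, and at right the libraries with low Xist, PD-901 1 excepted, are the higher ones.

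Some regulators of the module passed the test in the combination. Of 22 regulators of cell cycle transcription 3 rose and 0 fell (5.78% and 7.97% of all tested genes), with a median change of 0.32. The fitted change was above 0 in 21 of them, and 11 had an unadjusted p under 0.05 (27.5% of all tested genes). Mybl2 (B-Myb), the activating partner of MuvB, rose from 89.3 ± 9.31 to 137 ± 14.0 CPM (SD, n = 3 each), a change of 0.62 (edgeR adjusted p = 0.0075). E2f4, a subunit of the DREAM repressor, rose by 0.70, and Tfdp2, a dimer partner of E2F proteins, by 0.84 (edgeR adjusted p = 0.0070 and 0.025). Foxm1, the other activator of G2 genes, was at 129 ± 7.24 CPM in vehicle and 135 ± 25.4 in the combination (change 0.07, edgeR adjusted p = 0.91). The retinoblastoma gene Rb1 stood at 0.47 just outside the threshold (edgeR adjusted p = 0.0502).

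Brakes and other genes of entry control went both ways, with 4 of 21 genes higher and 4 lower. Btg1 and Btg2, antiproliferative factors of quiescent and differentiating cells, fell, with changes of -1.51 and -1.05 (edgeR adjusted p = 0.0064 and 0.012). Btg1 went from 523 ± 82.2 CPM in vehicle to 184 ± 24.0 in the combination (SD, n = 3 each). The stress gene Gadd45a and the cyclin gene Ccng2, the other two that fell, changed by -0.81 and -0.58 on the log2 scale and were named after their values were seen. Chek1, the checkpoint kinase of replication stress, rose by 0.68, Bora, a cofactor in Plk1 activation, by 0.50, and Wee1, the kinase that inhibits Cdk1, by 0.48 (edgeR adjusted p = 0.015, 0.025 and 0.036). The fourth was Ccng1. Cdkn1a (p21) was at 21.9 ± 4.26 CPM in vehicle and 32.3 ± 3.39 in the combination (change 0.56, edgeR adjusted p = 0.095).

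Other machinery of division gave unequal counts. Of the other kinetochore and checkpoint genes 13 of 32 rose, among them Zwilch (0.64), Cenph (0.79), Cenpp (0.98) and Knstrn (0.52), and 0 fell. This stands beside 0 of 6 in the kinetochore set of the module, though the medians were 0.41 and 0.40. In a list of 7 genes, the remaining condensin subunits with the kinesin gene Kif4, 4 rose: Ncapg2 (0.83), Smc2 (0.70), Smc4 (0.46) and Ncapd2 (0.44). Of 27 tested genes among 29 other spindle and cytokinesis genes 4 rose, Kif15 (0.51), Dlgap5 (0.55), Ccnf (0.50) and Kif14 (0.72). The anaphase promoting complex itself gave 0 of 16 calls (3 unadjusted p under 0.05, median 0.21). Of 14 cohesin and separation genes only Wapl, the cohesin release factor, rose (0.44), and Pttg1, the separase inhibitor securin, was at 0.09 (edgeR adjusted p = 0.90).

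Of 33 S phase and DNA replication genes 32 were higher in the combination, with a median change of 0.65, against 12 of 34 and 0.43 in the G2 and mitosis module. Examples are Orc1 of the origin recognition complex (1.12), Cdc6, the loader of the replicative helicase (0.97), Mcm4 of that helicase (0.81) and Rrm2 of ribonucleotide reductase (0.81). Their summed level was 4016 to 4692 CPM in vehicle and 5860 to 7338 in the combination, and combination mouse 2 was again the lowest of its group. The difference between the S phase and mitotic genes was not tested. Of 8 G1 cyclins and kinases 4 rose and 1 fell. The cyclin E genes Ccne1 and Ccne2 rose by 1.23 and 0.98, and Cdk4 by 0.62 (edgeR adjusted p = 0.0029, 0.0032 and 0.0088). The remaining call upward was Cdk6. Ccnd1 (cyclin D1), a target of MEK and ERK signalling, fell by 2.08 from 50.6 ± 30.2 to 11.9 ± 4.88 CPM (SD, n = 3 each, edgeR adjusted p = 0.016). The lowest change among these 8 genes was -0.28 with PD-901 alone and -0.69 with 5-azacitidine alone, with 0 called in either. Ccnd2 and Ccnd3, the other D cyclins, were at -0.10 and -0.13 (edgeR adjusted p = 0.89 and 0.61).

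**Figure D5:**
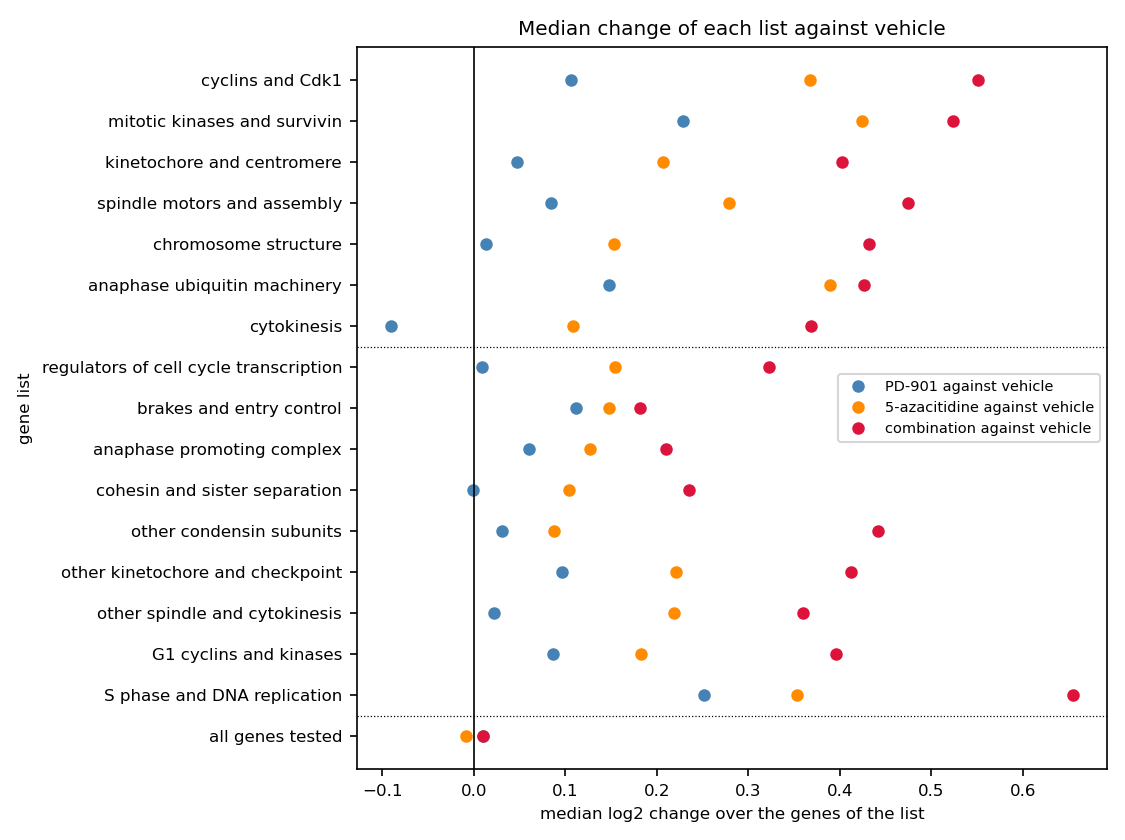
Median log2 change against vehicle over the tested genes of each list, for the 7 role sets of the module (above the first dotted line), 9 lists of related genes, and all genes tested (below the second). S phase genes have the highest combination median at 0.65, the module's role sets lie between 0.37 and 0.55, and the median over all genes is near 0 in all 3 contrasts.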

How the data were processed

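RNA of bone marrow cells from 12 mice, 3 in each of 4 groups went through paired-end sequencing on a HiSeq4000 after a low-input library preparation from RNA with an integrity number above 7, per the labels' protocols. The authors' deposited table holds raw counts of reads per gene without any scaling. STAR 2.7.2a, Subread 1.6.5, featureCounts and build mm10 are named in the submitters' processing notes. The sources used here do not give the annotation release, the use of strand or the treatment of reads with several matches. Gene symbols and positions come from the table.

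The counts went into edgeR 4.0.16 (R 4.3.3). After filterByExpr (minimum count 10, minimum total 15) 17475 of 56350 genes remained. TMM factors ran from 0.929 to 1.067 and also scale the CPM values. A quasi-likelihood model with 1 mean per group was fitted to all 12 libraries (8 residual degrees of freedom), with 5 pairwise contrasts, the interaction and a joint test, all two-sided, each adjusted by Benjamini and Hochberg over all tested genes at 0.05. Standard errors follow from the F statistics. Libraries of a group differed by more than counting noise (19.9 to 71.2 as chi-square per degree of freedom). On simulated counts for the combination against vehicle (16621 genes), the test found 61% of the 2-fold and 82% of the 4-fold changes, and 5 of 148 calls were false. The changed genes were drawn at random from the genes above a low level, not from the module.

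The 35 genes, their roles, and the related and marker lists were chosen with earlier results of these data known. Values per library are given for each member called in the combination against vehicle and for 17 fixed members, others by ranges, and each related list names up to 4 genes with the lowest p plus Foxm1, Mybl2, Cdkn1a, Wee1, Pttg1 and the D cyclins. Since replicate numbers follow the order of deposit, they pair no mice. Alternatives were other scalings and filters, DESeq2 1.42.0, limma-voom (limma 3.58.1), fits of the groups compared, Xist or Lyz2 as a covariate, and each library left out. Fits with erythroblast markers as a covariate, or without the 4 libraries lowest in Lyz2, were added after the data were seen.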

Additional observations from a re-analysis of the deposited data

How the results depend on the processing

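The median change of the 34 genes stayed above 0 in the combination against vehicle under every alternative run (0.29 to 0.52, and 0.64 in the fit left with 1 mouse in each of these groups), and 0 genes were called lower there, but the number called higher moved. It was 12 in the reported fit, 21 with DESeq2, 23 with total counts and no TMM factor, 6 with Lyz2 as a covariate, and 0 with Xist as a covariate, with the erythroblast markers as a covariate (median 0.29) or without the 4 libraries lowest in Lyz2 (medians 0.64 here, and 0.17 and 0.41 for PD-901 and 5-azacitidine). For the combination against PD-901, where 5 were called, the counts were 11 with DESeq2, 9 with no TMM factor, 8 with no low-count filter, 0 with Lyz2, and 1 each with Xist, with the erythroblast markers and without the 4 libraries. The joint test, with 3 in the reported fit, gave 11 with DESeq2, 9 with no TMM factor, 12 with no filter, 6 with the stricter filter, and 0 with Xist, with the erythroblast markers or without the 4 libraries. For 5-azacitidine against vehicle DESeq2 called 3 and the unfiltered fit 2, where 291 and 225 of all tested genes were higher. Against 5-azacitidine DESeq2 called 1 in the combination, where 288 of all tested genes were higher. Calls over all tested genes moved as well. For the combination against vehicle 1010 were higher in the reported fit, 1455 with DESeq2, 1425 with no TMM factor and 679 with Lyz2. It was 0 with Xist and 1 with the erythroblast markers. Higher than with PD-901 were 296 in the reported fit, 763 with DESeq2, 581 with no TMM factor and 503 with no low-count filter. Lyz2 gave 12 there, Xist 34 and the erythroblast markers 149. In the joint test 1217 were called, 3018 with DESeq2, 1395 with no TMM factor and 2629 with no filter. That test called 1596 with the stricter filter, 6 with Xist and 150 with the erythroblast markers. The filters also change how many genes are tested. Leaving out 1 library gave 3 to 17 calls for the combination against vehicle, 0 to 8 against PD-901, 0 to 1 for 5-azacitidine against vehicle and 0 to 7 in the joint test. Without the TMM factor the median of all genes moved to 0.09 for the combination against vehicle, 0.11 against PD-901, 0.13 against 5-azacitidine and 0.12 for the interaction, and the module's medians were 0.29 against 5-azacitidine and 0.28 for the interaction. At that scaling 17 of the 34 genes had an unadjusted p under 0.05 against 5-azacitidine (2 in the reported fit). For the interaction 4 did (0 in the reported fit), and 0 were called in either. The share over all genes at that scaling is not given. Of single genes, Kif23 in the combination turned to -0.016 with Lyz2, -0.077 without vehicle replicate 3 and -0.022 with the erythroblast markers, which also took Ndc80 to -0.079 and Spc25 to -0.017. The cause of these shifts was not tested. The simulation recovered 61% of 2-fold changes, planted in genes drawn from the whole table. The module's genes had higher levels and less spread (median 126 CPM and 0.135, against 12.5 and 0.25 over all tested genes). That share therefore does not measure how well changes of the module are found. All changes of the module were below 2-fold. No paired analysis was possible because the labels carry no number shared between mice of different groups.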
